A study of Mus musculus with 11 samples.

Results

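The quadriceps of mice with severe cancer cachexia was compared with the quadriceps of tumor-free mice, gene by gene. Cachexia was induced with C26, a mouse colon adenocarcinoma line grown under the skin. The animals were female CD2F1 mice aged 5 to 6 weeks per the labels, and the severe group had lost 15% of its weight. There were 4 control mice and 4 mice with severe cachexia, with 1 Illumina MouseWG-6 v2.0 array per mouse. The arrays of 3 mice with moderate cachexia (10% weight loss) entered the normalization, the choice of probes tested and the estimate of spread. Their levels are given only where named. The vendor is Harlan in the labels and Charles River in the study's methods. Implantation was between the shoulder blades in the labels and in each flank in the methods, and the study's text calls its controls PBS-injected (buffered saline). Probes were taken as members when they were detected at p under 0.01 on every array of either group, which gave 18414 of the 45281 probes. Of these, 16454 were detected on all arrays of both groups, 933 on all control arrays only and 1027 on all severe arrays only. Members with 1 gene name numbered 15742 and represented 9962 genes, each read from its brightest probe, while 2672 member probes had several names or none. At the edge of that rule, Fjx1 and Mt4 were just inside with a detection p of 0.00996, and Ctnnal1 and Inpp5j were just outside at 0.01.

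In cancer cachexia, muscle breaks down its own proteins faster than it makes them. Breakdown runs mainly through the ubiquitin-proteasome system, in which ligases such as Trim63 and Fbxo32 mark muscle proteins for the proteasome, and through autophagy and lysosomes. Cytokines of the interleukin-6 family act through the gp130 receptor, Janus kinases and the transcription factor STAT3, and are the classical inducers of acute phase proteins. Muscle fibres are of slow oxidative and fast glycolytic kinds, each with its own myosins and troponins, and the mouse quadriceps is mostly fast.

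Of the 9962 member genes, 1571 rose and 1799 fell in severe cachexia (adjusted p under 0.05), and 6592 did not pass. Over all 10134 genes tested, 33.3% passed, 15.6% upwards and 17.8% downwards, and the median log2 fold change was 0.01. Changes of more than 2-fold numbered 301 upwards and 371 downwards among the members. For 32.3% of all genes tested the 4 severe arrays lay wholly above or wholly below the 4 control arrays. Of the genes detected on all 8 arrays, 1446 rose and 1596 fell, so most of the changes were between levels measured on both sides. Among the genes detected on every control array but not on every severe array, 203 of 436 fell and none rose. The mirror class, detected on every severe array only, had 125 rises in 410 genes and 0 falls. Those classes could hardly pass in the other direction, since the filter admitted them through the group where they were high. The same holds for each gene given below as undetected on some or all arrays of either group. The p-value of such a gene is no support for its direction. Without severe mouse 16 the rises numbered 1013, and without severe mouse 11 they numbered 1975.

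**Figure D1:**
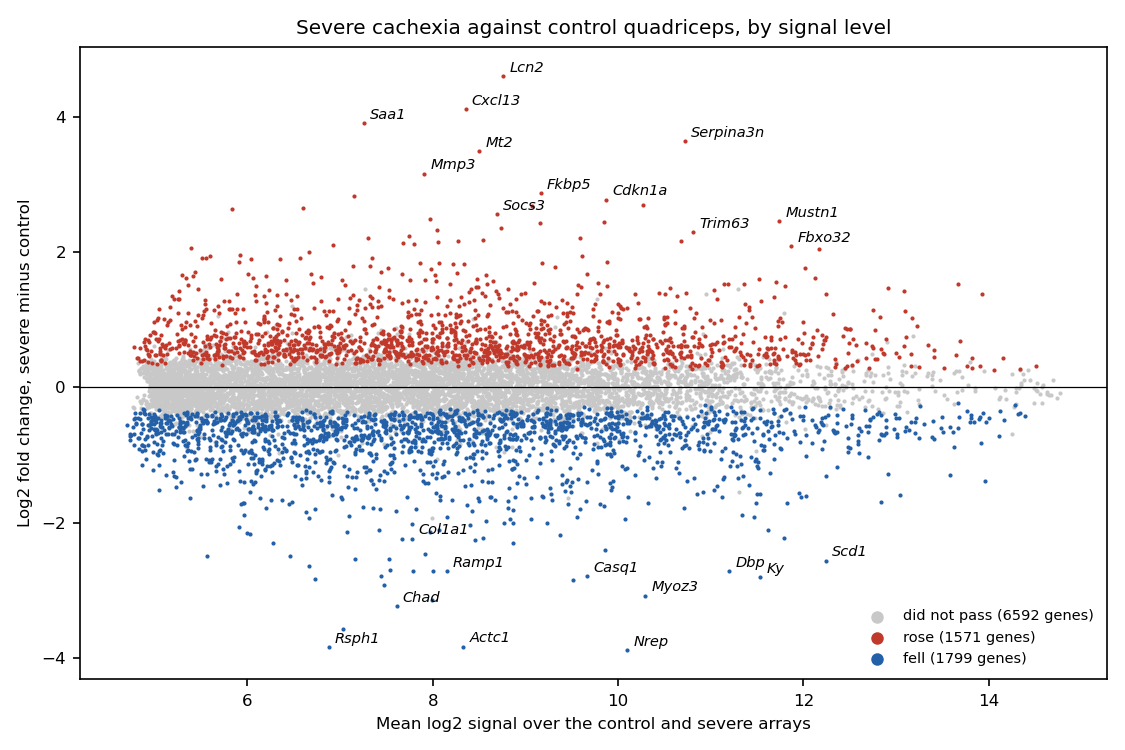
Each point is 1 member gene. The horizontal axis is the mean log2 signal of the control and severe group means, and the vertical axis is the log2 fold change of severe over control. Genes that rose (1571) and fell (1799) were found at all levels of signal, with Lcn2 at 4.60 and Nrep at -3.89 at the ends.

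The 8 arrays had 18626 to 20006 detected probes each. Pearson's r between arrays, over the member probes, was 0.985 to 0.992 among controls and 0.962 to 0.991 among severe mice, and severe mouse 11 accounted for the low end (0.962 to 0.978 with the other severe mice). The median SD over genes was 0.17 in controls and 0.21 in the severe group, and the SD was larger in the severe group for 6260 genes. Results that rest on mouse 11 are given with and without it. The skeletal muscle fibre gene Ckm (creatine kinase of muscle) was near the top of the scale on every array, at 14.27 to 14.40 in controls and 14.30 to 14.64 in severe mice. Of 10 fibre markers, 2 fell, Casq1 (-2.79) among them, and 0 rose (median -0.09). That share of falls was near the 17.8% over all genes. Of 10 markers of the implanted carcinoma's epithelium, only Cldn7 was a member (-0.23 on the log2 scale, not passed). None of the 8 dividing-cell markers with a probe was a member. Below, values are log2 signals, in the order of control mice 1, 2, 3 and 4 and of severe mice 11, 13, 15 and 16. Fold changes are severe minus control on the same scale with their standard error (SE). Adjusted p-values are from limma, with 4 arrays in either group and the spread estimated over all 11 arrays. Mice are numbered as the columns of the signal table are. The labels tie a column to a group and not to a sample, and p-values measure only the spread between these mice.

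The acute phase list had the highest median change of all lists. Of the 12 measured, 9 rose and 0 fell, with a median log2 fold change of 2.35 against 0.01 over all genes. The list named 25 genes, of which 21 had a probe, and those that stayed low in both groups were left out. Members not detected on every control array, such as Saa1, entered through the severe group and could hardly fall. Lcn2, which encodes the siderophore-binding lipocalin-2, read 5.87, 6.92, 8.15 and 4.91 in controls and 10.48, 11.38, 10.49 and 11.91 in severe mice, a 24.3-fold difference (4.60 on the log2 scale, SE 0.75, adjusted p = 0.000857). Control values were widely spread, and still every severe mouse was above every control. Saa1 (serum amyloid A), detected on 2 of 4 control arrays, read 4.43, 5.49, 6.50 and 4.81 in controls and 8.83, 9.37, 8.94 and 9.68 in severe mice (3.90, SE 0.41, adjusted p = 7.61e-05). The rises of Serpina3n, a serine protease inhibitor (3.64, SE 0.46), Saa3 (2.83, SE 0.70) and haptoglobin, Hp (2.70, SE 0.58), were also of non-overlapping groups. Itih4, an inter-alpha-trypsin inhibitor chain, was near the detection limit in controls (5.01 to 5.43) and read 8.36, 7.43, 7.80 and 8.11 in severe mice. Its relative Itih3 was detected on 0 control arrays and on all 4 severe arrays, at least 2.96-fold higher (adjusted p = 0.000519). Lbp, which binds bacterial lipopolysaccharide, rose by 1.38 (SE 0.20). Not all members moved. Saa2 stayed near 5 in every mouse (0.10, SE 0.14, adjusted p = 0.603), and Orm1 was high in severe mouse 11 alone (9.56, against 5.86 to 7.04 in the other severe mice and 7.46 to 8.25 in controls). Without mouse 11, Orm1 passed downwards (-1.5, adjusted p = 0.000931). The fibrinogen genes Fga, Fgb and Fgg had probes but were not members. Of 10 liver markers, 8, albumin (Alb) among them, were not members, and the other 2 did not pass. Transferrin (Trf), 1 of those 2, read 9.85 in severe mouse 11 and 8.30 to 8.71 in the other severe mice. In whole muscle, more RNA per cell and more cells of a type cannot be told apart.

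In the interleukin-6 signalling chain, the receptors Il6ra and Osmr, Stat3 and its feedback inhibitor rose, and the kinases Jak1, Jak2 and Tyk2 did not pass. Of 23 measured genes of interleukin-6 family receptors, JAK, STAT and SOCS, 7 rose and 0 fell (median 0.22). Il6ra, the interleukin-6 receptor chain, read 6.68, 6.31, 6.96 and 7.02 in controls and 8.53, 8.86, 9.26 and 8.80 in severe mice (2.12, SE 0.21, adjusted p = 5.83e-05). Stat3, which carries the signal to the nucleus, read 10.48, 10.22, 10.39 and 10.18 in controls and 11.78, 11.64, 11.84 and 11.78 in severe mice, a 2.72-fold difference (1.44, SE 0.10, adjusted p = 5.85e-06). Socs3, the inhibitor that STAT3 induces, read 7.27, 7.77, 7.71 and 6.90 in controls and 10.77, 9.54, 9.35 and 10.20 in severe mice, 5.88-fold (2.56, SE 0.27, adjusted p = 8.49e-05). The oncostatin M receptor Osmr (1.26, SE 0.15) and the transcription factors Cebpd (1.36, SE 0.16) and Cebpb (0.65, SE 0.14) rose as well. Jak1 (-0.02, SE 0.20), Jak2 (-0.02, SE 0.13) and Tyk2 (-0.10, SE 0.13) did not pass, with adjusted p of 0.938, 0.924 and 0.589. Socs2 and Cish, which growth hormone induces through STAT5, had values of -0.68 (adjusted p = 0.132) and -0.50 (adjusted p = 0.275). Without severe mouse 11, 2 genes of the list passed downwards, Socs2 among them (-0.95, adjusted p = 0.0213).

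Promoter sequence is shown for 2 risen genes whose promoter holds a STAT motif, because STAT3 is the factor the study followed. It is also shown for the ligase Trim63, whose promoter holds a forkhead motif, because forkhead factors are its textbook regulators. Genes without a motif are not shown, nor are other named genes with one. The STAT motif was also in promoters of named genes that fell, among them Dbp (-2.72) and Mef2c (-1.63). Sequences are RefSeq's (GRCm38.p6), 250 bases before to 50 after the start, 5' to 3' on the gene's strand, and 153 of 199 named genes had one. In the promoters of Socs3 (chr11:117969317-117969616, minus strand) and Itih4 (chr14:30886226-30886525, plus strand), capitals mark TTCNNNGAA, the palindromic STAT motif, at positions -154 and -51 from the start.
Socs3: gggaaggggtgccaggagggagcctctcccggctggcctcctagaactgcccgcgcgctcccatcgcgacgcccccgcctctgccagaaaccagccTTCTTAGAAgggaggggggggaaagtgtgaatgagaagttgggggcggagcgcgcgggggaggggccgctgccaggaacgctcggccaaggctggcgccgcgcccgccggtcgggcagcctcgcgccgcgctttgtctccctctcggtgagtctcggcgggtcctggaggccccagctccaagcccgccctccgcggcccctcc
Itih4: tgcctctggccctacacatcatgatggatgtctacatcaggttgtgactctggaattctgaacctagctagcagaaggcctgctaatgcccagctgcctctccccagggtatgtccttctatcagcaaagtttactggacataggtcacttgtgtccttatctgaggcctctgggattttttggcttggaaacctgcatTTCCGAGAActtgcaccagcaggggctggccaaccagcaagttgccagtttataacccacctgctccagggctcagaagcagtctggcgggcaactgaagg
In the promoter of Trim63 (chr4:134314870-134315169, plus strand), capitals mark the forkhead motif GTAAACA read on the other strand, at position -194.
Trim63: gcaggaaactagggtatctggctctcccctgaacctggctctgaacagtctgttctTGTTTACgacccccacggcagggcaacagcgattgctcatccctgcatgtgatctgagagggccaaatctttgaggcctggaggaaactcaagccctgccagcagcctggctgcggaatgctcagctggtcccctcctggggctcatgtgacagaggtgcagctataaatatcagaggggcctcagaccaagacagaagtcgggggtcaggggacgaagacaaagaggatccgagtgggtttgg
Both strands were searched. TTCNNNGAA was in 8.3% of all 32851 promoters of this length, in 6.82% of those of genes tested, in 7.23% of those of risen genes and in 6.14% of those of fallen genes. The shares for GTAAACA were 3.65%, 2.56%, 1.87% and 2.19%. CACGTG, the E-box of the clock, was searched as well, with shares of 7.15%, 10.1%, 11.5% and 8.95%. These are counts of letters in a short window, and no binding was measured.

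The best known ubiquitin ligases of atrophying muscle, Trim63 and Fbxo32, rose. Of 16 measured, 4 rose and 2 fell, against 15.6% and 17.8% over all genes, and the list's median was 0.12. Trim63 (MuRF1) read 9.30, 9.51, 10.03 and 9.81 in controls and 11.07, 11.97, 12.16 and 12.62 in severe mice, a 4.90-fold difference (2.29, SE 0.28, adjusted p = 0.000165). Fbxo32 (atrogin-1) read 10.55, 10.75, 11.02 and 10.97 in controls and 12.23, 13.20, 12.93 and 13.28 in severe mice, 4.25-fold (2.09, SE 0.20, adjusted p = 3.24e-05). In both genes the groups were far apart and mouse 11 was the lowest of the severe mice. Fbxo31 (1.13, SE 0.17) and Ubr2 (0.62, SE 0.14) also rose, while Fbxo40, a ligase that targets the insulin receptor substrate, fell by 1.0 (SE 0.25) and Fbxo21 fell by 0.80 (SE 0.18). The ligases Cblb (0.08, SE 0.14) and Traf6 (-0.21, SE 0.13) did not pass.

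Proteasome subunits rose as a body. Of 27 measured, 22 rose and 0 fell, where 15.6% of all genes rose, and their median was 0.71. Per mouse, the list's median lay 0.30, 0.86, 0.63 and 0.87 above the control mean in the severe mice, lowest in mouse 11, and between -0.06 and 0.10 in controls. Psma7, of the catalytic core's outer ring, read 10.91, 10.70, 11.17 and 10.92 in controls and 12.03, 12.69, 12.31 and 12.90 in severe mice (1.56, SE 0.19, adjusted p = 0.000152). Of the regulatory cap, Psmd8 rose by 1.53 (SE 0.22), Psmd2 by 1.32 (SE 0.15) and Psmd11 by 1.18 (SE 0.22). The catalytic subunits Psmb5 (0.34, SE 0.16, adjusted p = 0.118) and Psmb6 (0.12, SE 0.13, adjusted p = 0.504) did not pass.

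Lysosomal genes rose in 11 of 21 cases and none fell (median 0.30, with 1 fall without severe mouse 11), among them Gaa, the lysosomal glycogen-digesting glucosidase (1.18, SE 0.17), and the proteases Ctsl (0.90, SE 0.19) and Ctsd (0.64, SE 0.17). Npc1, which exports cholesterol from lysosomes, read 9.99, 9.69, 10.22 and 10.24 in controls and 10.45, 11.84, 11.69 and 11.74 in severe mice (1.39, SE 0.27). Of 24 autophagy genes, 6 rose and 1 fell (median 0.14), and 2 fell without control mouse 3. Map1lc3b, the LC3 protein of the autophagosome membrane, rose by 0.71 (SE 0.12), the mitophagy receptor Bnip3 by 1.02 (SE 0.23) and the cargo receptor Sqstm1 by 0.80 (SE 0.22). Leaving out control mouse 1, severe mouse 13 or severe mouse 16 left 3 of those 6 rises. The kinase Ulk2 fell by 0.70 (SE 0.16), and its relative Ulk1, which starts autophagy, did not pass (0.12, SE 0.20, adjusted p = 0.675).

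Genes that restrain growth rose in part. Of 17 growth brakes and FOXO genes, 7 rose and 2 fell, with a median of 0.51, and the 2 falls depended on single mice (0 passed when control mouse 1, 2 or 3 or severe mouse 13 or 15 was left out, and 1 did without control mouse 4 or severe mouse 11 or 16). Cdkn1a, the cell cycle inhibitor p21, read 7.99, 8.0, 9.23 and 8.72 in controls and 9.73, 12.23, 11.05 and 12.02 in severe mice (2.77, SE 0.47, adjusted p = 0.00116). Mouse 11 was the lowest severe mouse and still above every control. Eif4ebp1, which blocks cap-dependent translation, read 11.08, 10.89, 11.59 and 11.03 in controls and 12.55, 13.62, 13.24 and 13.32 in severe mice (2.04, SE 0.23, adjusted p = 0.000122). Foxo1, a forkhead factor that drives the ligases, rose by 1.57 (SE 0.18), and Gadd45a, a stress gene of denervated muscle, by 0.98 (SE 0.14). Ddit4, which inhibits mTORC1, rose by 1.54 (SE 0.41), with 1 control (9.37) inside the severe range of 9.16 to 10.72.

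In the insulin and IGF list, 6 of 24 genes rose and 4 fell (median 0.10, or 0.17 without mouse 11). The share that fell was near the 17.8% over all genes, and the share that rose was above the 15.6%. Grb14, an inhibitor of the insulin receptor, read 8.59, 8.94, 8.27 and 8.12 in controls and 6.94, 6.15, 6.46 and 5.94 in severe mice (-2.11, SE 0.23, adjusted p = 0.000113). Igfbp5, the main IGF-binding protein of muscle, fell by 1.61 (SE 0.19), and Igfbp3 rose by 1.40 (SE 0.30). Akt2, the insulin-responsive kinase, rose by 1.07 (SE 0.20) and the PI3-kinase subunit Pik3r1 by 0.95 (SE 0.20). Igf1 itself did not pass with all mice (-0.24, adjusted p = 0.323) and passed downwards without mouse 11 (-0.42, adjusted p = 0.0301). Of 14 myogenic and myostatin-pathway genes, 2 rose and 1 fell, no larger shares than the 15.6% and 17.8% over all genes. Myf6, a factor of mature fibres, read 10.79, 11.45, 11.17 and 10.82 in controls and 12.06, 12.73, 12.41 and 13.03 in severe mice (1.5, SE 0.23, adjusted p = 0.00065). Myog (myogenin) rose by 1.29 (SE 0.26) at a low level, and Mef2c fell by 1.63 (SE 0.30). Myod1 did not pass (0.78, adjusted p = 0.0777), with 7.02 in mouse 11 and 7.98 to 8.80 in the other severe mice, and passed without mouse 11 (1.15, adjusted p = 0.00126).

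Slow-fibre contractile genes fell more often than the 17.8% of all genes that did. Of 14 slow-fibre and developmental genes, 10 fell and 0 rose, with a median of -1.18. Of 18 fast-fibre genes, 5 fell and 0 rose, with a median of -0.11, and the difference between the lists was not tested. Actc1, cardiac actin, which developing muscle also expresses, read 10.18, 10.27, 10.16 and 10.37 in controls and 6.10, 6.47, 6.63 and 6.46 in severe mice, 14.3-fold lower (-3.83, SE 0.34, adjusted p = 2.04e-05). Myl3, the slow essential light chain, read 13.41, 13.09, 12.88 and 12.24 in controls and 10.47, 10.81, 10.29 and 11.11 in severe mice, 4.70-fold lower (-2.23, SE 0.41, adjusted p = 0.00168). Myl2 (-1.71, SE 0.41), the troponin Tnnt1 (-1.62, SE 0.39) and the tropomyosin Tpm3 (-1.45, SE 0.31) did likewise, and in Myl3, Myl2, Tnnt1 and Tpm3 control mouse 4 was the lowest control. Leaving out control mouse 1 or severe mouse 15 left 5 of the 10 falls. The neonatal myosin Myh8 did not pass (-0.64, SE 0.30, adjusted p = 0.112). The fast myosins Myh4 (14.44 to 14.63 in controls, 14.34 to 14.63 in severe mice) and Myh1 (-0.18, SE 0.12), fast troponin Tnnt3 (-0.04, SE 0.09) and skeletal actin Acta1 (-0.05, SE 0.12) did not pass. These genes were among the brightest on the arrays, and for Actn3 and Tpm2 of the same list the dimmer probes gave the larger falls. Actn3, the fast alpha-actinin, gave -0.23 on its brightest probe (mean signal 14.48), which did not pass, and -0.45 and -0.84 on dimmer ones (13.66 and 12.53). Of the 5 fast-fibre genes that fell, the largest change was in Casq1, the calsequestrin that stores calcium in fast fibres, at 10.96, 10.97, 10.96 and 11.36 in controls and 9.47, 7.05, 8.71 and 7.85 in severe mice (-2.79, SE 0.49, adjusted p = 0.00131). For Tpm2, the brightest probe fell by 0.38, and 2 dimmer probes fell by 1.84 and 2.27.

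**Figure D2:**
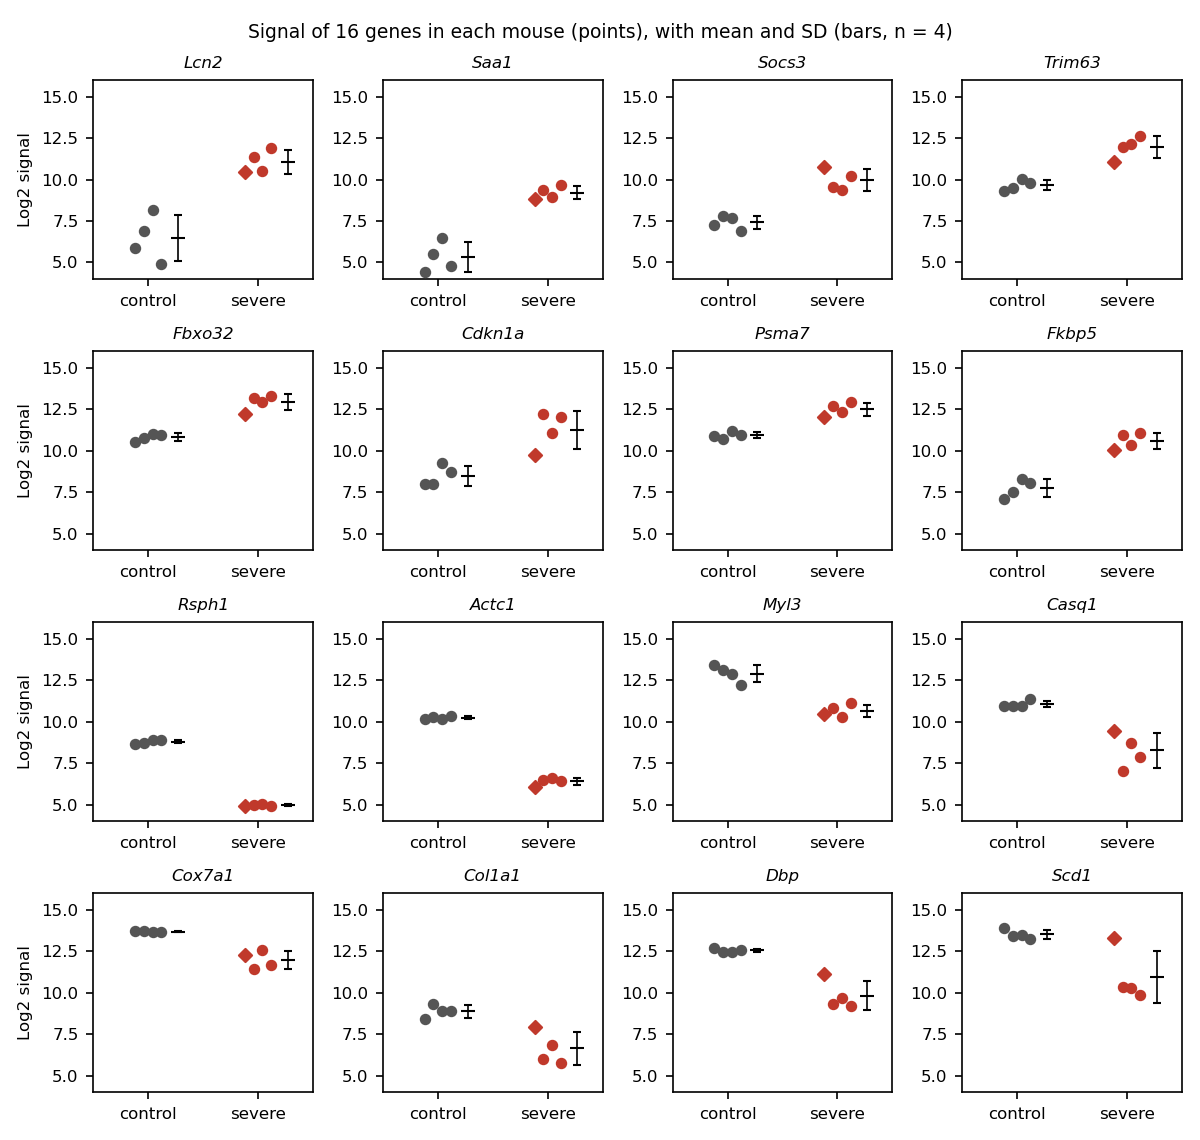
Each panel is 1 gene, with the log2 signal on the vertical axis, a point per mouse (diamonds, severe mouse 11) and the mean with the SD (n = 4) beside each group. Every severe mouse is beyond every control in 15 of the panels, and in the last, Scd1, mouse 11 at 13.33 lies within the controls.

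Z-disc, M-band and stretch proteins changed in both directions (8 rose and 7 fell of 31, median -0.05), against 15.6% and 17.8% over all genes. Myoz3, a Z-disc protein that binds calcineurin, read 12.03, 11.48, 11.78 and 12.04 in controls and 9.79, 7.86, 9.34 and 8.02 in severe mice (-3.08, SE 0.44, adjusted p = 0.000435). Ky, a Z-disc protease-like protein needed for normal muscle growth, fell by 2.81 (SE 0.40) and Ldb3 by 1.17 (SE 0.25). The risen members included stretch and damage genes. Ankrd1 read 8.23, 9.15, 8.62 and 8.50 in controls and 12.02, 11.59, 10.26 and 10.41 in severe mice (2.44, SE 0.50, adjusted p = 0.00319), filamin C (Flnc) rose by 1.42 (SE 0.24) and Klhl40, which stabilises thin filaments, by 1.31 (SE 0.32). Csrp3 and Ankrd2 did not pass with all mice (adjusted p = 0.0524 and 0.0525). Mouse 11 read 10.37 and 10.40 in them, as the controls did, against 11.13 to 13.45 in the other severe mice, and both passed without mouse 11 (2.0, adjusted p = 0.0023, and 1.78, adjusted p = 0.00779). Leaving out control mouse 1 or 2 or severe mouse 16 left 4 of the 7 falls. Mustn1, a small nuclear protein of muscle and bone that is on no list, rose by 2.46 (SE 0.49).

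Genes of calcium release and membrane excitability fell broadly. Of 26 measured, 16 fell and 2 rose, with a median of -0.65 against 0.01 over all genes. Aqp4, the water channel of fast fibres, read 8.93, 8.72, 8.69 and 8.93 in controls and 6.03, 4.86, 5.33 and 4.78 in severe mice, where it was detected in 3 of 4 (-3.57, SE 0.32, adjusted p = 2.13e-05). Mettl21c, a lysine methyltransferase of muscle (-2.54, SE 0.28), the potassium channel subunit Kcng4 (-2.50, SE 0.28), the junctional membrane protein Jph2 (-1.76, SE 0.30), the triad protein Stac3 (-1.49, SE 0.26) and the chloride channel Clcn1 (-1.27, SE 0.25) fell too. Cacng1, a subunit of the voltage sensor, went the other way, from 10.90 to 10.96 in controls to 11.65, 12.23, 11.89 and 12.11 in severe mice (1.04, SE 0.13, adjusted p = 0.000223). The 2 rises became 1 without control mouse 3 or 4 or severe mouse 13 or 16. At the neuromuscular junction 4 of 17 genes rose and 5 fell, against 15.6% and 17.8% over all genes. Chrne, the adult subunit of the acetylcholine receptor, fell by 1.37 (SE 0.22) and the acetylcholinesterase gene Ache, detected on 2 of 4 severe arrays, by 1.20 (SE 0.19), Rapsn rose by 0.47 (SE 0.11), and the receptor subunit Chrna1, which denervation induces, did not pass (0.39, SE 0.19, adjusted p = 0.141).

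Mitochondrial energy genes fell almost uniformly and by modest amounts. Of 65 respiratory chain and ATP synthase subunits, 56 fell and 0 rose, where 17.8% of all genes fell, with a median of -0.55. Per mouse, the median of the list was -0.42, -0.74, -0.41 and -0.62 in severe mice and -0.01 to 0.03 in controls. Only 3 of the 56 fell by more than 2-fold. They were Cox7a1, the muscle form of a cytochrome oxidase subunit, Cyc1 (-1.06, SE 0.17) and Ndufs8 (-1.01, SE 0.14). Cox7a1 read 13.70, 13.71, 13.67 and 13.68 in controls and 12.26, 11.44, 12.61 and 11.66 in severe mice (-1.70, SE 0.22, adjusted p = 0.000257). Of 20 citrate cycle enzymes, 16 fell and 0 rose (median -0.69). Pcx, the pyruvate carboxylase that replenishes the cycle, fell by 1.92 (SE 0.33), Idh3a by 1.58 (SE 0.26) and Mdh2 by 0.97 (SE 0.13). Of 23 genes of PGC-1 coactivators and partner receptors, 10 fell and 3 rose, and the share that rose was no larger than the 15.6% over all genes. The falls included Ppargc1b (-1.15, SE 0.18), Esrra (-0.95, SE 0.17), the mitochondrial deacetylase Sirt3 (-1.34, SE 0.20) and the AMP-kinase subunit Prkag3 (-2.11, SE 0.31), while Ppargc1a did not pass (-0.35, SE 0.20, adjusted p = 0.183).

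Glycolysis and glycogen genes fell in 15 of 29 cases and rose in 5 (median -0.45), and the share that rose was near the 15.6% over all genes. Pgm1, which links glycogen to glycolysis, read 14.56, 14.71, 14.67 and 14.66 in controls and 14.11, 12.40, 13.65 and 12.89 in severe mice (-1.39, SE 0.29, adjusted p = 0.00384). Phkg1, the catalytic subunit of phosphorylase kinase (-1.79, SE 0.38), pyruvate kinase Pkm (-1.29, SE 0.18) and lactate dehydrogenase Ldha (-0.89, SE 0.24) fell, whereas Aldoa and Gapdh, both near the top of the scale, did not pass (-0.08 and -0.17). Pdk4, which shuts pyruvate dehydrogenase, rose by 1.38 (SE 0.22), and its opposing phosphatase Pdp1 fell by 1.40 (SE 0.26). Ppp1r3c, which targets a phosphatase to glycogen, rose by 1.38 (SE 0.25). The 5 rises became 3 without any 1 of the controls or without severe mouse 15 or 16. Most fatty acid genes did not pass (4 rose and 5 fell of 30), and these shares were near the 15.6% and 17.8% over all genes. Pnpla2, the adipose triglyceride lipase, rose by 1.03 (SE 0.18), and the last enzyme of beta oxidation, Acaa2, fell by 1.36 (SE 0.26). The 4 rises of the fatty acid list became 8 without severe mouse 11, 2 without control mouse 4 or severe mouse 13, and 1 without control mouse 1 or severe mouse 16. Nmrk2, a kinase that makes NAD from nicotinamide riboside in muscle, read 11.06, 11.27, 10.78 and 10.64 in controls and 7.99, 8.44, 7.91 and 8.01 in severe mice (-2.86, SE 0.23, adjusted p = 1.24e-05). Its other probes gave -2.72 and -0.21. In polyamine synthesis, Odc1 (0.89, SE 0.18) and Srm (1.02, SE 0.17) rose and the spermine oxidase Smox fell by 1.31 (SE 0.23).

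Glucocorticoid-responsive genes rose in 11 of 20 cases (median 0.69), and 2 fell. Fkbp5, a chaperone of the receptor and a sensitive target of it, read 7.09, 7.51, 8.30 and 8.02 in controls and 10.05, 10.96, 10.33 and 11.05 in severe mice, 7.31-fold (2.87, SE 0.28, adjusted p = 4.19e-05). Zbtb16 (0.86, SE 0.15) and Tsc22d3, also called GILZ (0.65, SE 0.16), rose, and Per1 did not pass (-0.18, SE 0.14, adjusted p = 0.343). The list's median was 1.07 in mouse 11 and 0.56 to 0.71 in the other severe mice. Mt2, a metallothionein that zinc and inflammation induce as well, read 5.78, 7.12, 8.55 and 5.57 in controls and 10.17, 10.26, 10.22 and 10.31 in severe mice (3.48, SE 0.49, adjusted p = 0.000388), so its controls were scattered and its severe mice nearly equal. The 2 falls of the list were lost without control mouse 1 or 2 or severe mouse 13 or 15, and 1 was left without control mouse 3 or severe mouse 16. Without severe mouse 11 neither passed and 1 other gene fell.

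Of 15 measured clock genes, 3 rose and 6 fell (median -0.32), against 15.6% and 17.8% over all genes. Dbp, a clock output factor, read 12.69, 12.48, 12.49 and 12.57 in controls and 11.15, 9.30, 9.70 and 9.20 in severe mice, 6.57-fold lower (-2.72, SE 0.34, adjusted p = 0.000214). Per3 (-1.14, SE 0.23), Nr1d1 (-0.73, SE 0.18) and Nr1d2 (-0.74, SE 0.15) fell. Arntl (BMAL1), the activator that drives these genes, read 7.01, 6.67, 7.45 and 6.79 in controls and 7.04, 10.24, 9.51 and 9.75 in severe mice (2.15, SE 0.52, adjusted p = 0.00755). The 3 severe mice with high Arntl had the lowest Dbp and Per3, and mouse 11, at the control level for Arntl, had the least lowered Dbp and Per3 of the severe group. Without mouse 11 the difference in Arntl was 2.85 (adjusted p = 8.75e-06) and 5 clock genes rose. Rora, an activator of Arntl, rose by 1.17 (SE 0.29). The hour of tissue collection was not analysed here.

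Inflammatory mediators other than the acute phase genes rose in part. Of 18 chemokines, 5 rose and 3 fell (median 0.22, or -0.02 without mouse 11), and the share of falls was near the 17.8% over all genes. The chemokine median was 0.611 in mouse 11 and -0.002, 0.175 and -0.032 in severe mice 13, 15 and 16. Cxcl13, the B-cell attractant, read 5.18, 7.73, 7.12 and 5.16 in controls and 11.30, 10.29, 9.79 and 10.25 in severe mice (4.11, SE 0.63, adjusted p = 0.000589), while Ccl6 rose by 1.99 (SE 0.30), Ccl9 by 1.84 (SE 0.35), and Cxcl9, an interferon-gamma target, fell and was detected on 0 severe arrays (at least 1.58-fold lower, adjusted p = 0.000472). Of 16 genes of the interleukin-1, TNF and NF-kB pathways, 7 rose and 1 fell. Il1r2, the decoy receptor of interleukin-1, was detected on 1 of 4 control arrays (4.26 to 5.12 in controls, 6.01 to 6.91 in severe mice) and rose (adjusted p = 0.000711). Tnfrsf12a, the TWEAK receptor Fn14, rose by 2.67 (SE 0.38) and the adaptor Myd88 by 1.34 (SE 0.17). Tnfaip3, the NF-kB inhibitor A20, fell by 0.78 (SE 0.14). Early response transcription factors rose in 10 of 19 cases and none fell (median 0.74, with 1 fall without mouse 11), led by Atf3 (2.21, SE 0.53), Fos (1.83, SE 0.32), Junb (1.48, SE 0.26) and Jun (1.29, SE 0.23). Of the complement list, 6 of 12 rose and 1 fell (median 0.59), and without mouse 11 the falls were 2 and the median 0.32. The list held C4b at 7.49, 7.82, 7.75 and 7.19 in controls and 10.75, 9.26, 10.00 and 9.66 in severe mice (2.36, SE 0.27). Of 24 interferon-responsive genes, 5 fell and 1 rose with all mice (median -0.33), a share of falls near the 17.8% of all genes, and in 3 of the 24 the groups did not overlap, below the 32.3% of all genes. Among the falls were Gbp3 (-1.15, SE 0.24) and Ifit3 (-0.96, SE 0.19). The list's median was 0.08 in mouse 11 and -0.53 to -0.37 in the other severe mice. Without mouse 11, 13 fell and 0 rose, and B2m, the light chain of class I molecules, then passed (-0.77, adjusted p = 0.000453). Falls of that list numbered 3 without control mouse 1 or 3 or severe mouse 13 or 16, and the single rise was lost without control mouse 1, 3 or 4 or severe mouse 15 or 16.

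Several markers of white cells rose as well. Of 12 macrophage markers, 8 rose and 0 fell (median 0.84), against 7 and a median of 0.50 without mouse 11, and the sum of their signals was 2511 to 2907 in controls and 8598, 3921, 4258 and 4102 in severe mice, highest in mouse 11. Cd163, the haemoglobin scavenger receptor of tissue macrophages, read 7.91 to 8.04 in controls and 10.12, 8.78, 9.34 and 9.37 in severe mice (1.43, SE 0.22, adjusted p = 0.00068). C1qb (1.33, SE 0.26) and Vsig4, detected on 1 of 4 control arrays, rose, and the defining markers Csf1r (0.01, SE 0.23, adjusted p = 0.967) and Adgre1 (0.46, SE 0.27, adjusted p = 0.213) did not pass. Macrophage rises numbered 5 without control mouse 4. Of 13 neutrophil markers 6 were measured and 3 rose. They were S100a8, Lrg1 (1.46, SE 0.23, mean signal 10.75) and Retnlg (mean signal 5.36), which was detected on 1 of 4 control arrays and on all 4 severe arrays. Whether Lrg1 came from neutrophils was not tested. The neutrophil proteins S100a8 and S100a9 were high in control mouse 1 (9.57 and 8.55) as well as in the severe mice (8.32 to 9.85 and 7.33 to 8.69), and S100a9 did not pass (adjusted p = 0.0538). S100a8 passed with all mice (adjusted p = 0.0435), and not without severe mouse 11, 13 or 16 or without control mouse 2, 3 or 4 (adjusted p = 0.0654 to 0.122). Of the lymphocyte list only Cd74, of the class II pathway, was measured, and 1 gene cannot stand for these cells. Cd74 fell, from 9.92 to 10.08 in controls to 8.96, 7.64, 8.86 and 8.05 in severe mice (-1.62, SE 0.26). The T-cell genes Cd3e, Cd4 and Cd8a were not members. Of 11 endothelial markers 1 rose (3 without control mouse 2, 2 without severe mouse 11). Of 8 satellite cell markers 5 were measured and 3 rose. These were Des (0.44, at a mean signal of 13.82), Sdc4 (0.85) and Cdh15 (0.75), and Heyl did not pass (-0.18). How far a shift in cell types contributed to any list was not tested.

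**Figure D3:**
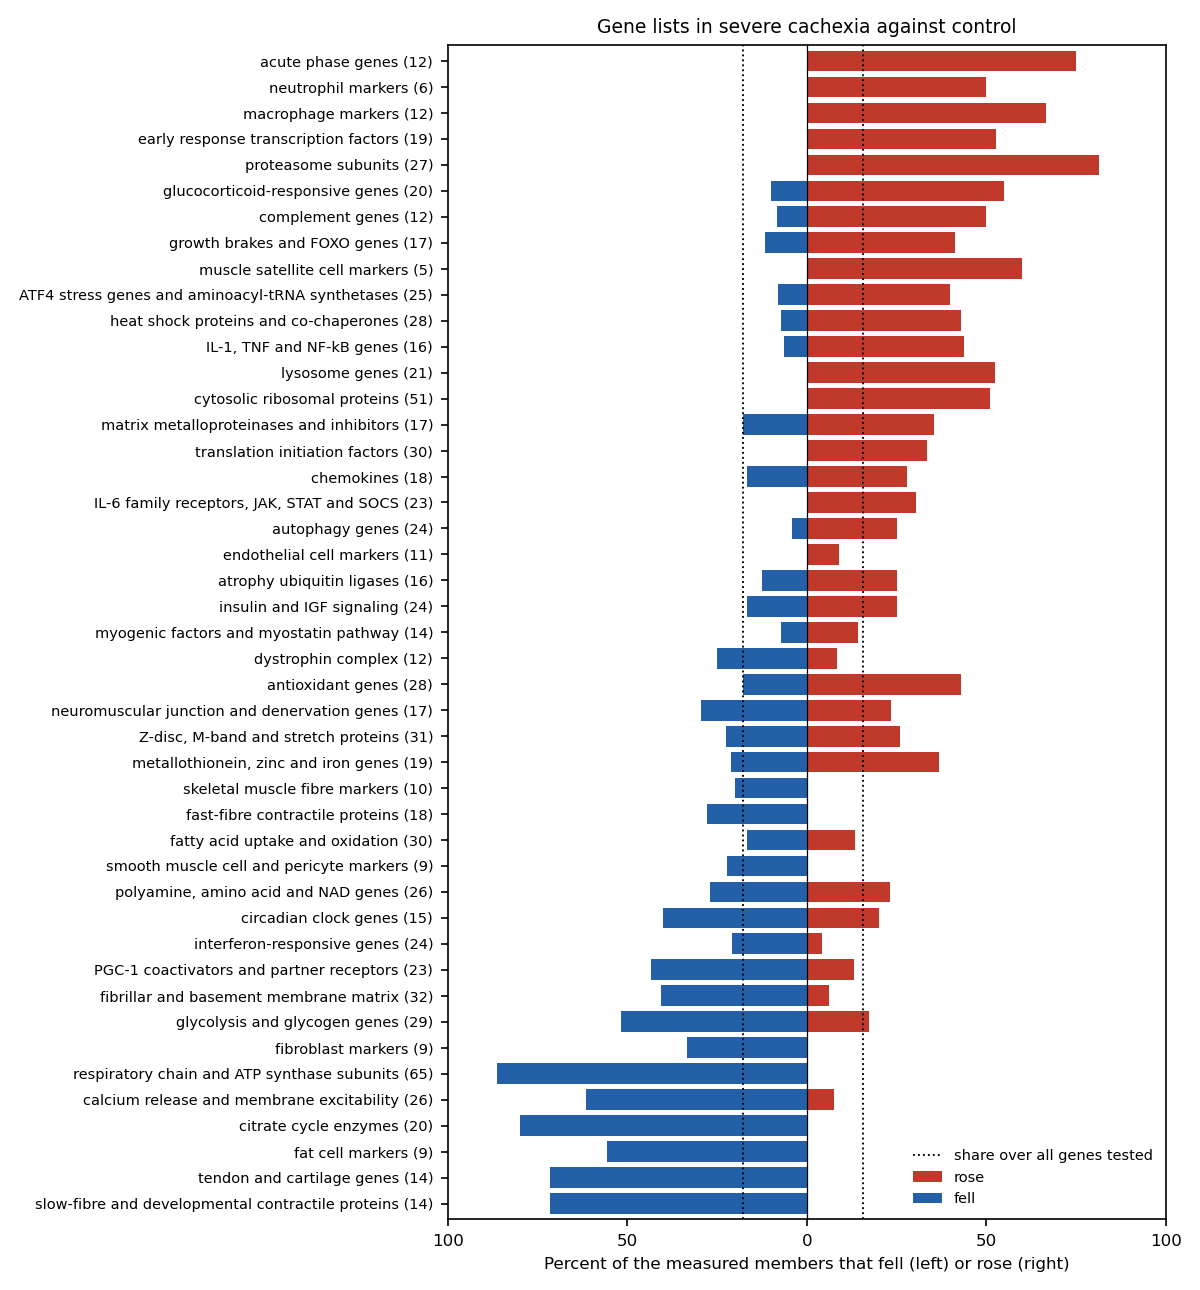
Horizontal bars give the percent of each list's measured members that rose (right, red) or fell (left, blue), ordered by the list's median change, with the number measured in parentheses. Dotted lines mark 15.6% and 17.8%, the shares over all genes tested. Proteasome subunits (22 of 27 rose) and respiratory chain subunits (56 of 65 fell) reach farthest on their sides.

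Stress and synthesis genes rose more than they fell. Of 28 heat shock genes, 12 rose and 2 fell (median 0.41), with the small heat shock proteins Hspb1 (1.77, SE 0.26) and Hspb7 (1.53, SE 0.34) in front. The rises numbered 7 without control mouse 1 or severe mouse 13 and 6 without severe mouse 16, and 1 of the falls was left without any 1 control or without severe mouse 13 or 16. Hspa1a, the inducible HSP70, read 6.30 to 6.84 in controls and 6.20, 10.34, 8.59 and 8.48 in severe mice, so that mouse 11 was at the control level (without it 2.50, adjusted p = 0.000219). It passed with all mice (1.76, adjusted p = 0.0361), and not without any 1 control or without severe mouse 13, 15 or 16 (adjusted p = 0.0619 to 0.0882). Of 28 antioxidant genes, 12 rose and 5 fell (median 0.03, or -0.03 without mouse 11), and the share that fell was near the 17.8% over all genes. Targets of the factor NRF2 were among the rises, Gclm (1.52, SE 0.28), Srxn1 (1.45, SE 0.31) and Hmox1 (1.65, SE 0.38), and the glutathione transferases Gsta4 (-1.39, SE 0.28) and Gstt1 (-1.32, SE 0.17) among the falls, which numbered 3 without control mouse 3 or severe mouse 16. Of 19 metallothionein, zinc and iron genes, 7 rose and 4 fell, with the share of falls again near the 17.8% over all genes. Tfrc, the transferrin receptor for iron uptake, read 9.90, 10.09, 9.48 and 10.02 in controls and 9.23, 7.77, 7.82 and 8.14 in severe mice (-1.63, SE 0.28, adjusted p = 0.00115), and the ferritin light chain Ftl1 rose by 0.85 (SE 0.16). Those 4 falls became 2 without control mouse 2 or severe mouse 13 or 16. Cytosolic ribosomal proteins rose in 26 of 51 cases and none fell (median 0.28, no change over 2-fold, 1 fall without control mouse 2), with Rps6 at 0.87 (SE 0.15) and Rpl3 at 0.85 (SE 0.15) the largest. Of 30 translation initiation factors 10 rose and none fell (1 did without severe mouse 15), Eif4a1 (0.71, SE 0.14) and Eif3b (0.72, SE 0.17) among them. Of 25 ATF4 stress genes and aminoacyl-tRNA synthetases, 10 rose and 2 fell (6 rises without control mouse 2 or severe mouse 13, 1 fall without control mouse 1 or 4, and 0 falls without control mouse 3 or severe mouse 13 or 16). Of amino acid carriers, Slc38a4 (1.33, SE 0.28), Slc7a2 (1.19, SE 0.22) and Slc3a2 (1.16, SE 0.20) rose.

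Most tendon genes and some matrix genes fell, and some metalloproteinases rose. Of 14 tendon and cartilage genes, 10 fell and 0 rose, with a median of -1.15. Chad (chondroadherin) read 9.43, 9.0, 9.32 and 9.15 in controls and 5.53, 6.91, 5.98 and 5.55 in severe mice (-3.23, SE 0.43, adjusted p = 0.000299). Kera (-2.79, SE 0.38), Ecrg4 (-2.64, SE 0.38), Comp (-1.69, SE 0.40) and Fmod (-1.66, SE 0.33) fell with it. Of 32 fibrillar and basement membrane genes, 13 fell and 2 rose (median -0.45). Col1a1, the main collagen chain, read 8.40, 9.36, 8.92 and 8.92 in controls and 7.94, 6.00, 6.89 and 5.80 in severe mice, 4.72-fold lower (-2.24, SE 0.46, adjusted p = 0.00353). Col24a1 fell by 2.83 (SE 0.27) and Col6a1 by 1.36 (SE 0.29), and Lox, which crosslinks collagen, rose by 1.23 (SE 0.16). The list's median was 0.08 in mouse 11 and -0.76 to -0.40 in the others. Col3a1 read 10.14 in mouse 11 and 7.28 to 8.38 in the other severe mice (9.26 on average in controls), and passed only without mouse 11 (-1.58, adjusted p = 0.00228). Falls of the list numbered 19 without severe mouse 11, 8 without control mouse 2 or severe mouse 13, and 6 without severe mouse 16. Of fibroblast markers 3 of 9 fell, a count of 6 without severe mouse 11, of 1 without control mouse 2 or 4 and of 0 without severe mouse 13 or 16. Mmp3 (stromelysin-1) read 5.78, 7.27, 6.38 and 5.87 in controls and 10.70, 8.64, 9.67 and 8.91 in severe mice (3.16, SE 0.40, adjusted p = 0.000215). Mmp14 rose by 1.29 (SE 0.15), Adamts4, detected on 0 control arrays, was at least 2.41-fold higher (adjusted p = 0.000214), and of the inhibitors Timp1 rose by 1.67 (SE 0.34) and Timp3 fell by 0.50 (SE 0.10). Of the 17 genes of that list 6 rose and 3 fell, a share of falls near the 17.8% over all genes. Only 1 of the falls was left without control mouse 1 or 4 or severe mouse 13 or 16.

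Some of the largest changes were in genes on no list. Nrep, a small protein of regenerating tissue, read 12.23, 12.10, 11.97 and 11.87 in controls and 8.77, 8.06, 8.27 and 7.52 in severe mice, 14.8-fold lower (-3.89, SE 0.30, adjusted p = 1.10e-05). Rsph1, known from the radial spokes of cilia, read 8.69, 8.74, 8.89 and 8.88 in controls and 4.94, 4.96, 5.03 and 4.90 in severe mice, close to the detection limit (-3.84, SE 0.20, adjusted p = 2.48e-07). The outer mitochondrial membrane protein Gdap1 fell by 2.93 (SE 0.48) and Ramp1, the coreceptor for the peptide CGRP, by 2.72 (SE 0.22). Among genes detected on 0 severe arrays, the imprinted gene Nnat (neuronatin) was at least 3.88-fold lower (adjusted p = 2.48e-07), at 6.58 to 7.11 in controls and 4.27 to 4.34 in severe mice. Tet1, which oxidises methylated cytosine, was at least 2.52-fold lower (adjusted p = 5.85e-06). Among genes detected on 0 control arrays, the secretoglobin Scgb3a1 was at least 4.90-fold higher (adjusted p = 1.21e-05), the C-type lectin Clec4d at least 2.44-fold and Doc2b at least 2.60-fold (adjusted p = 0.00759 and 0.00764). The filter admitted all of these undetected genes through the group where they were high, so they could hardly pass in the other direction. Plac8 rose by 2.48 (SE 0.47).

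Several genes of fat cells and of fat synthesis varied widely within the severe group, as did Mup2, Hspa1a, Ccl8, Arntl and Csrp3. Of 9 fat cell markers, 5 fell and 0 rose with all mice (median -1.10). The sum of their signals was 6292 to 11980 in controls, 13390 in severe mouse 11, and 2236, 2094 and 3662 in severe mice 13, 15 and 16. Without mouse 11 all 9 fell (median -1.54), while 2 fell without severe mouse 16 and 3 without control mouse 2 or 3 or severe mouse 13 or 15. Lep (leptin) read 9.31, 8.95, 9.36 and 8.96 in controls and 8.32, 5.84, 5.31 and 6.27 in severe mice (-2.71, SE 0.56, adjusted p = 0.00335). Ucp1, the uncoupler of brown fat, had the widest severe range among members detected at least once in each group, at 9.98, 6.18, 4.53 and 4.95 against 8.97, 10.08, 10.32 and 8.87 in controls. It passed with all mice (-3.15, adjusted p = 0.0177) and without mouse 11 (-4.34, adjusted p = 2.67e-05), and not without control mouse 2 or severe mouse 16 (adjusted p = 0.0503 and 0.0589). Scd1, the desaturase that makes monounsaturated fat, read 13.26 to 13.90 in controls and 13.33, 10.37, 10.27 and 9.88 in severe mice (-2.56, SE 0.58, adjusted p = 0.00539, and -3.35 without mouse 11). Another 5 genes linked to fatty acid synthesis, some chosen after their values were seen, are named for their wide severe range, which is a description and was not tested. The citrate carrier Slc25a1 read 11.30 in mouse 11, 6.30 to 7.21 in the other severe mice and 7.55 to 9.09 in controls, Acly read 13.67, 9.84 to 10.98 and 9.37 to 11.70, Elovl6 read 9.30, 5.47 to 6.09 and 6.24 to 8.02, Thrsp read 11.32, 6.92 to 8.67 and 8.04 to 9.18, and Fasn read 8.09, 5.16 to 5.47 and 5.07 to 6.41. None of these 5 passed with all mice (adjusted p = 0.42 to 0.869). Mup2, a major urinary protein gene of liver, read 13.81 in mouse 11, 9.10 to 9.41 in the other severe mice and 7.61 to 11.13 in controls. Members of that family are near copies of each other, so a probe can read several.

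**Figure D4:**
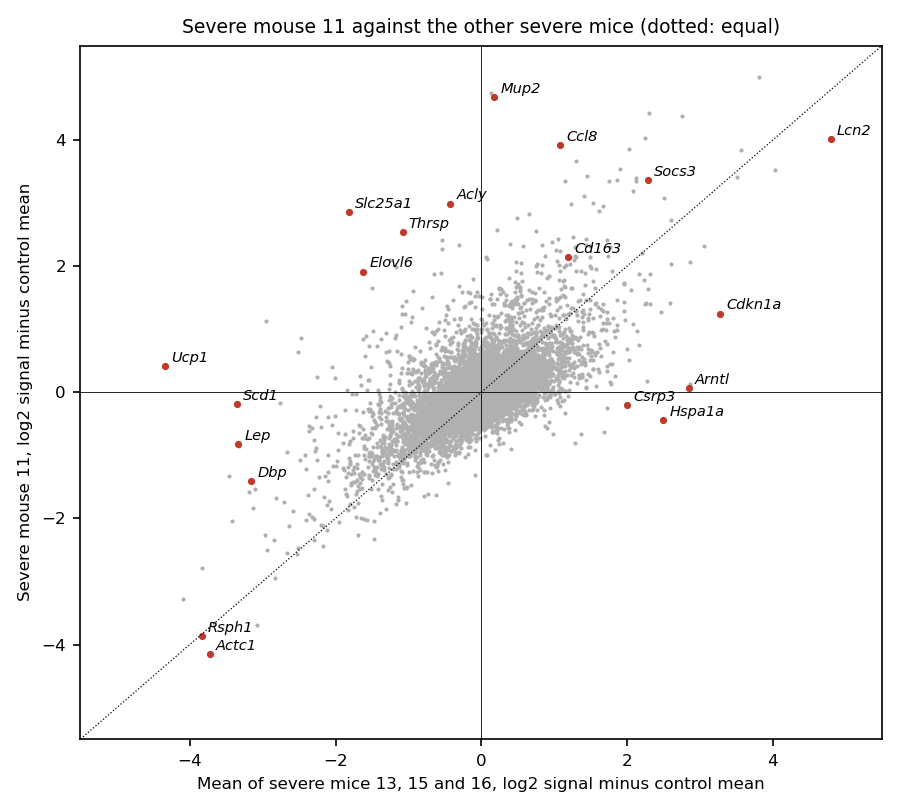
Each point is 1 member gene, with its log2 signal minus the control mean in severe mouse 11 (vertical) against the mean of severe mice 13, 15 and 16 (horizontal), and named genes in red. Genes on the dotted line changed equally. Slc25a1, Acly and Thrsp lie above the control level in mouse 11 only, and Arntl, Hspa1a and Csrp3 lie at the control level in mouse 11 and above it in the others.

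**Figure D5:**
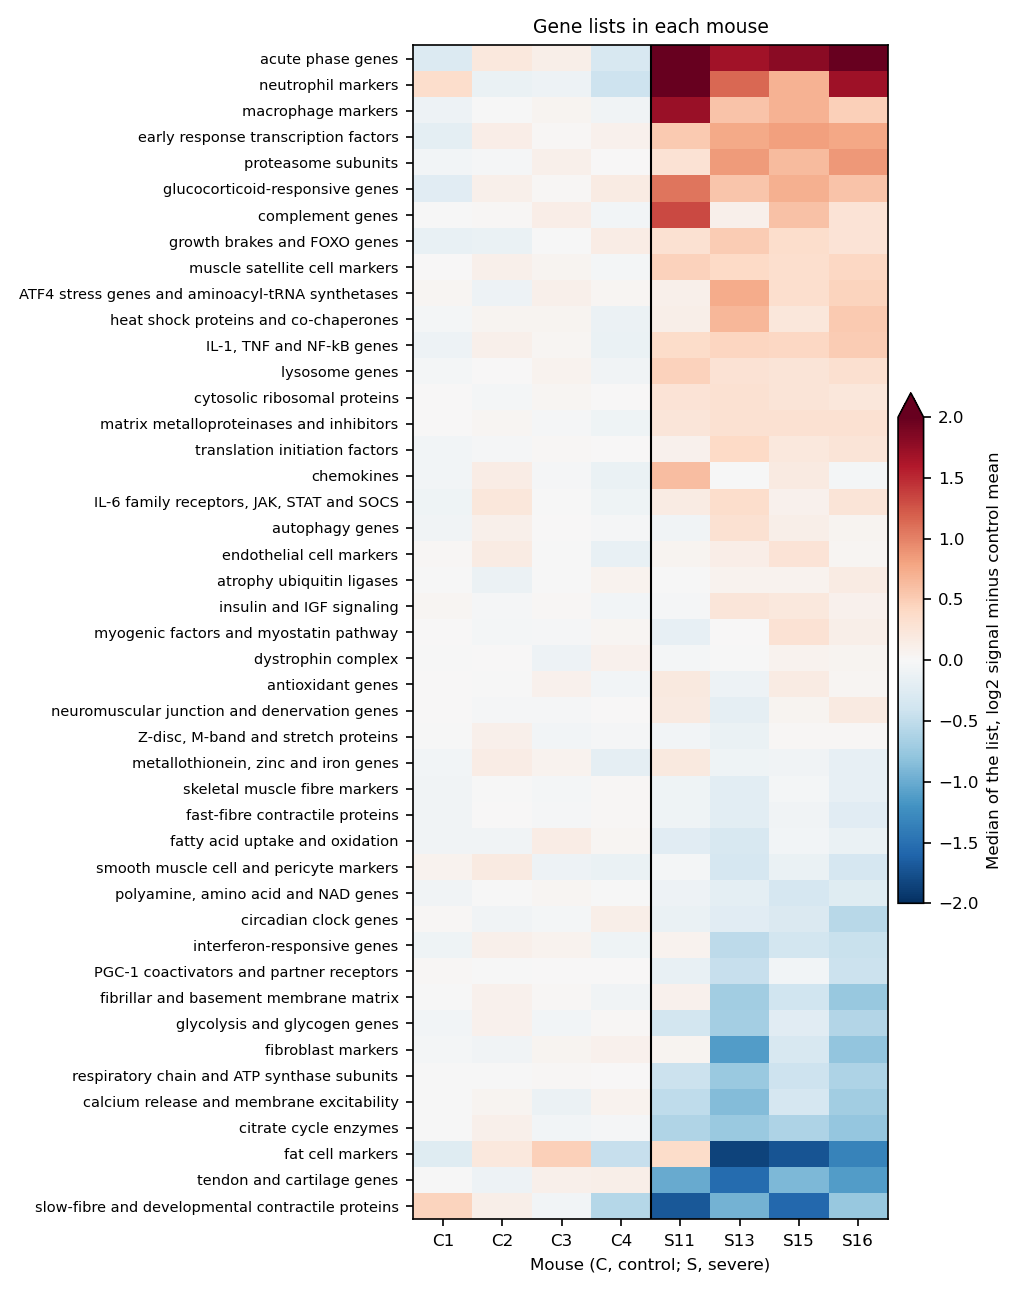
Rows are gene lists and columns are mice. The colour is the list's median log2 signal minus its control mean, from -2 (blue) to 2 (red, with higher values in the same red). Acute phase genes are high and slow-fibre genes low in all 4 severe mice, and fat cell markers are 0.36 in mouse 11 and -1.85 to -1.33 in the other severe mice.

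Several of the named genes stood at another level in moderate than in severe cachexia. Over all genes tested, 6.98% differed between the stages (limma, severe minus moderate, adjusted p under 0.05). Of the 3376 genes that rose or fell in severe cachexia 240 did, a share near that over all genes. Several proteolysis genes were lower in severe than in moderate cachexia. Trim63 averaged 9.66 in controls, 13.72 in moderate and 11.95 in severe mice (-1.77 between the stages, SE 0.30, adjusted p = 0.00579). Fbxo32 averaged 10.82, 14.07 and 12.91 (-1.16, SE 0.21, adjusted p = 0.00778). The same direction was seen for Pdk4 (-1.51, adjusted p = 0.00384), Npc1 (-1.69, adjusted p = 0.0059), Ctsl (-1.21, adjusted p = 0.00631), Gadd45a (-0.96, adjusted p = 0.00471), Foxo1 (-0.74, adjusted p = 0.0421) and Ddit4 (-2.16, adjusted p = 0.0134). Ulk1 and Cblb, which did not pass against controls, averaged 8.72 and 7.80 in severe mice and 10.74 and 8.80 in moderate mice (adjusted p = 0.000407 and 0.00369). Other genes were farther from the controls in severe cachexia. Actc1 averaged 10.25, 7.73 and 6.41 (-1.32 between the stages, adjusted p = 0.0469), Cox7a1 13.69, 12.86 and 11.99 (-0.87, adjusted p = 0.0471), and Ankrd1 8.62, 8.76 and 11.07 (2.31, adjusted p = 0.0235). Myod1 averaged 5.5 in moderate and 8.14 in severe mice (adjusted p = 0.00136), and Myf6 10.92 and 12.56 (adjusted p = 0.00369). Stat3 (0.21, adjusted p = 0.294) and Socs3 (0.39, adjusted p = 0.462) did not pass between the stages. Those moderate means are over 3 mice, and both stages were set against the same controls. The study collected its moderate mice on an earlier day after tumor injection than its severe mice. Stage and time with the tumor therefore cannot be told apart.

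For some named genes the probes disagreed. Saa1 had a second probe at 0.50 against 3.90, and Masp1 (complement) had probes at 0.94 and -0.44. Myog had probes at 1.29 and 0.27, and Npc1 had 4 probes between 0.63 and 1.66 and 1 at -0.78. Tpm3 had 5 probes between -1.45 and -1.08 and 1 at 0.42. Saa1 and Saa2, and Hspa1a and Hspa1b, are near-identical pairs whose probes can share signal. Over single probes, 5848 of 18837 passed, 2872 upwards and 2976 downwards.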

How the data were processed

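Total RNA of flash-frozen quadriceps was hybridised to Illumina MouseWG-6 v2.0 bead arrays, 1 per mouse. The authors subtracted background from the deposited intensity values and quantile-normalized them on a linear scale, and 28.5% of them were below 0. The authors' software, BeadStudio, gave the deposited detection p-value of each probe on each array. The deposited ratio values were signals floored at 1 over the median of the controls, as set by the authors, and served only as an alternative. Signals were corrected with normexp, its background taken from the detection p-values (offset 16), quantile-normalized and put on the log2 scale in limma 3.58.1 (R 4.3.3). Genes were named from the platform's annotation, with symbols updated through RefSeq. Probes had to be detected (p under 0.01) throughout 1 or more groups, and the brightest probe stood for its gene. All 11 arrays were fitted with 3 group means (lmFit, eBayes with an intensity trend), and p-values were adjusted by Benjamini-Hochberg over 10134 genes with a threshold of 0.05. The number of arrays limits the precision.

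The sample behind each column was known only to its group, and columns named Late were taken as severe because no other group was left. An "at least" fold set the mean of the detected group against, on each array of the other, the higher of the lowest detected signal and the probe's own. The 37 gene lists and 14 lists of cell type markers, the members and the tests were chosen with earlier results of these data known. Named genes were the largest changes and bounds with non-overlapping groups, the members of each list with the smallest p-values or a defining role, and genes the study names. The fit was tested on simulated data for this comparison over 10134 genes. Of these, 9934 were left unchanged, and each gene had the same spread in every group. The fit recovered 40 of 50 rises and 46 of 50 falls of 1 log2 unit, and 11 of 50 rises and 12 of 50 falls of 0.5. In the data 33.3% of genes passed and the severe group had the larger spread, so these rates need not hold there. Alternatives covered background correction, normalization, the deposited ratios, detection filters, probe choice, the arrays fitted, moderation, the t-test and leaving out each mouse. Figures were drawn with matplotlib 3.10.9.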

Additional observations from a re-analysis of the deposited data

Results flagged for a closer look

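In a group of 4 mice, 1 mouse lay far from the other 3 (a gap above Dixon's critical value) in 26 of 420 groups of named genes and in 1 of 100 groups of lists. Chance alone gives about 1 in 20. Severe mouse 11 was the far mouse in 11 of the 27 cases, a number that cannot be set against chance, since some genes (Elovl6, Fasn and Mup2 among them) were named after their values were seen or for their wide severe range, which mouse 11 set.

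Severe mouse 11 was high in B2m (12.34 against 11.20 to 11.35 in the other severe mice), Ccl9 (11.37 against 9.59 to 9.72), Elovl6 (9.30 against 5.47 to 6.09), Fasn (8.09 against 5.16 to 5.47), Mup2 (13.81 against 9.10 to 9.41), Plac8 (10.59 against 8.63 to 8.96), Scd1 (13.33 against 9.88 to 10.37) and Timp1 (8.84 against 6.97 to 7.15). It was low in Npc1 (10.45 against 11.69 to 11.84) and Sqstm1 (11.59 against 12.61 to 12.79). The median of the Schwann cell markers was -0.08 in mouse 11 and -0.46 to -0.42 in the others, relative to controls.

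Control mouse 1 was high in S100a8 (9.57), S100a9 (8.55) and Igfbp5 (13.13) and low in C1qb (7.34) and Fmod (8.61). Control mouse 2 was high in Csf1r (8.0), Myh1 (13.87) and Pkm (13.94) and low in Ecrg4 (7.41) and Slc38a4 (6.74). Control mouse 3 was high in Hspb1 (11.59), Scgb3a1 (4.81) and Slc3a2 (6.24), and Scgb3a1 was undetected in all controls. Control mouse 4 was high in Casq1 (11.36) and low in Bnip3 (4.70) and Kera (8.6).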

How the results depend on the processing

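Of 170 named genes that passed, all kept their direction under every alternative that gave them a value, and 137 also kept their side of the threshold in each. For 21 of them, the filter for probes detected on all control and severe arrays gave no value. The 3376 calls were 2814 to 3407 under the other settings of correction, filter, probe, arrays, moderation and deposited ratios with all mice, and 2361 under the methods' t-test, where 1012 rose against 1576. Leaving out a mouse gave 1013 (without severe mouse 16) to 1975 (without severe mouse 11) rises, 1271 to 2119 falls and 2284 to 4094 calls in all. With only control and severe arrays and no mouse 11, a setting chosen after seeing the data, 4272 passed (2052 rose). At the methods' thresholds of 2-fold and an unadjusted p of 0.05, 686 genes passed, against 1075 without background correction, 453 with an offset of 50 and 1066 with the deposited ratios. With the replicate number as a block, which the deposited ratios allow, 2975 genes passed (1331 rose, 1644 fell). Same-numbered mice deviated together with r of 0.022, 0.126, -0.117 and 0.093 and correlated best with their own number in 2 of 4 cases. So few values cannot show whether same-numbered mice shared a block. The study's methods say that arrays were loaded by a randomized block design, and which mice shared a block was not known here.

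Signs turned only in genes that had not passed, and the cause was not tested. With the mean of a gene's probes, Jak2 was 0.063 and Per1 0.197. Leaving out single mice gave -0.428 to 0.848 for Acly, -0.116 to 0.054 for Acta1, -0.241 to 0.158 for Csf1r, -0.543 to 0.434 for Fasn, -0.182 to 0.121 for Jak1, -0.082 to 0.073 for Jak2, -1.08 to 0.385 for Thrsp, -0.315 to 0.203 for Trf and -0.058 to 0.249 for Ulk1. Signals near the detection limit and near the top of the scale can understate changes.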
